A study of Homo sapiens with 7 samples.

Results

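The BCL2 family holds proteins that decide at the outer membrane of the mitochondrion whether a cell survives or dies. Its transcripts were followed in HT1080, a human cell line from a fibrosarcoma, through 10 genes: the survival genes BCL2, BCL2L1, BCL2L2, MCL1 and BCL2A1, the effector genes BAX and BAK1, and the BH3-only genes BID, BCL2L11 and PMAIP1. Members were chosen by name, and every probe set that the platform annotation assigned to such a gene alone was read, which gave 32 of the 41097 probe sets with 1 gene and 10 of 19775 genes. A single probe set that named BCL2L2 together with PABPN1 and their readthrough gene was left out.

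The 7 cultures gave 1 Affymetrix U133 Plus 2.0 array each. Cells received catechin (11.25 ng/ml), epicatechin or taxifolin (both 6.25 ng/ml), resveratrol (2195 ng/ml), 5% control serum or 5% pycnogenol-positive serum, each for 2 h after a change of medium, and the last culture had no treatment. The labels do not say whether the untreated culture had the medium change or a solvent, nor whether the new medium held bovine serum, so these steps cannot be told apart from the compound or serum. The pycnogenol-positive serum came from persons treated with pycnogenol, a pine bark extract, and the source of the control serum is not given in the sources used here. All groups share the same line, and 1 line and 1 short exposure limit what the cultures stand for.

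With 1 array a group there was no spread between replicates to judge a difference by, and no p-value is given. The values are MAS5 signals as the authors deposited them, on a linear scale, and the median signal of an array ran from 114 to 136. A probe set was called past the signal filter when its mean log2 signal over the 7 arrays was at least 8.07, a signal of 269. That cut was the 50th percentile of the mean log2 signals of the 19775 genes. By construction 9888 genes passed, and passing does not show that a transcript was detected. The standard deviation (SD) of log2 differences over those genes ran from 0.235 to 0.282 among the 5 arrays without test serum and from 0.323 to 0.387 between a serum array and any of those 5, so the serum arrays stood apart. Of 8 mesenchymal markers 7 passed the filter. Of 6 epithelial markers KRT8 and KRT18 passed and EPCAM, CDH1, KRT19 and CLDN4 did not, none of 4 endothelial or 3 muscle markers passed, and of 5 measured blood cell markers HBB alone passed, with a summed signal of the 5 between 499 and 819 over the arrays.

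The survival proteins bind and hold back BAX and BAK1. These effectors, once freed and activated, form pores through which cytochrome c leaves the mitochondrion, and caspases are then switched on. BH3-only proteins start this step, either by occupying the survival proteins or by activating the effectors directly. Much of this control lies in binding, cleavage and protein turnover, which an RNA array does not read, and MCL1 and PMAIP1 are known for short-lived products. In bulk RNA, fewer cells that hold a transcript and less of it in each cell cannot be told apart.

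RefSeq start regions were matched for 8 of the 10 members. On brightest probe sets, BAK1 and PMAIP1 varied most over the arrays and BAX had the highest difference of any member between the serum arrays. The regions of these 3 are shown. Each is the 250 bases before the annotated start, on GRCh38.p14, written 5′ to 3′ on the gene's strand. BAK1 lies at chr6:33580277-33580526 on the minus strand, PMAIP1 at chr18:59899746-59899995 on the plus strand, and BAX at chr19:48954625-48954874 on the plus strand. Capitals mark matches, on either strand, to the GC box GGGCGG, the E box CACGTG and TGACG, the core of the cAMP response element.
BAK1: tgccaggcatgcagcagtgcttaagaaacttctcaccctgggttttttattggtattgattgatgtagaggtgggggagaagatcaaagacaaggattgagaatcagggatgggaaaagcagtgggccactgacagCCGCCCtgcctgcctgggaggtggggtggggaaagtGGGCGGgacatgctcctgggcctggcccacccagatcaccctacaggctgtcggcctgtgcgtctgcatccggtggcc
PMAIP1: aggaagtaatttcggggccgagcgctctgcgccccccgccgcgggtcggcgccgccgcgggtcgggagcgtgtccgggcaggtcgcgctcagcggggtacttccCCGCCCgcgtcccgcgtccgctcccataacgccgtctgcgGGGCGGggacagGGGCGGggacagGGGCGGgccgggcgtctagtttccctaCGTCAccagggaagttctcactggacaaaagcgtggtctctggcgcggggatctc
BAX: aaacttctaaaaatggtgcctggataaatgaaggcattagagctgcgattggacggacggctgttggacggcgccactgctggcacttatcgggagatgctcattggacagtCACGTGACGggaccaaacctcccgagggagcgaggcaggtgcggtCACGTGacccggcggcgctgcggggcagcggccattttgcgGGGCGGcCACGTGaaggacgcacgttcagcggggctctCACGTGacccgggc
PMAIP1 held 4 GC boxes and 1 TGACG, BAK1 held 2 GC boxes, and BAX held 4 E boxes, 1 GC box and 1 TGACG that overlaps an E box. The TATA box TATAAA was searched as well and matched none of the 3. Among all 35116 start regions of the same length, 42.6% held a GC box, 21.2% TGACG, 6.34% an E box and 10.7% a TATA box. A match describes letters in the window and not a binding site.

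No member differed by 2-fold in any of the 6 comparisons. Each member was read from its brightest probe set by mean log2 signal, and all 10 passed the signal filter. In the same comparisons 0.455% of the 9888 genes differed by at least 2-fold with catechin against the untreated culture, 0.314% with epicatechin, 0.465% with taxifolin, 0.728% with resveratrol and 1.2% with control serum, and 0.536% with pycnogenol serum against control serum. With such small shares, a count of 0 among 10 genes lies near the background and says nothing particular about the family. The 21 member probe sets past the filter gave 126 differences, also with none at 2-fold, from -0.80 to 0.62 on the log2 scale. Of 17655 probe sets past the filter, 0.561%, 0.442%, 0.583%, 1.08%, 1.49% and 0.81% reached 2-fold in the same order of comparisons.

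The members differed in how much they varied over the 7 arrays. From the lowest to the highest array, the 9888 genes had a median range of 0.47 on the log2 scale. On brightest probe sets, 6 members exceeded it. There BAK1 had a range of 1.31, wider than 97.7% of the genes. It was the only member whose brightest probe set reached a 2-fold range, as 6.93% of the genes did. PMAIP1 followed with 0.79, BCL2A1 with 0.71, BCL2L11 with 0.68, BAX with 0.62 and BCL2 with 0.59. The flattest were MCL1 and BID, both with a range of 0.21, wider than 9.02% and 9.05% of the genes. Other probe sets past the filter gave wider or narrower ranges than the brightest. They were 1.09 on 231228_at of BCL2L1 and 0.65 on 227143_s_at of BID, but 0.41 on 208478_s_at of BAX. BAK1 was also the dimmest member, with a mean log2 signal of 8.99, and MCL1 the brightest at 14.5. Large differences were rarer among bright genes: with the filter at the 75th percentile, the share past 2-fold with catechin fell from 0.455% to 0.0202%. Ranges were not compared at matched brightness.

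**Figure D1:**
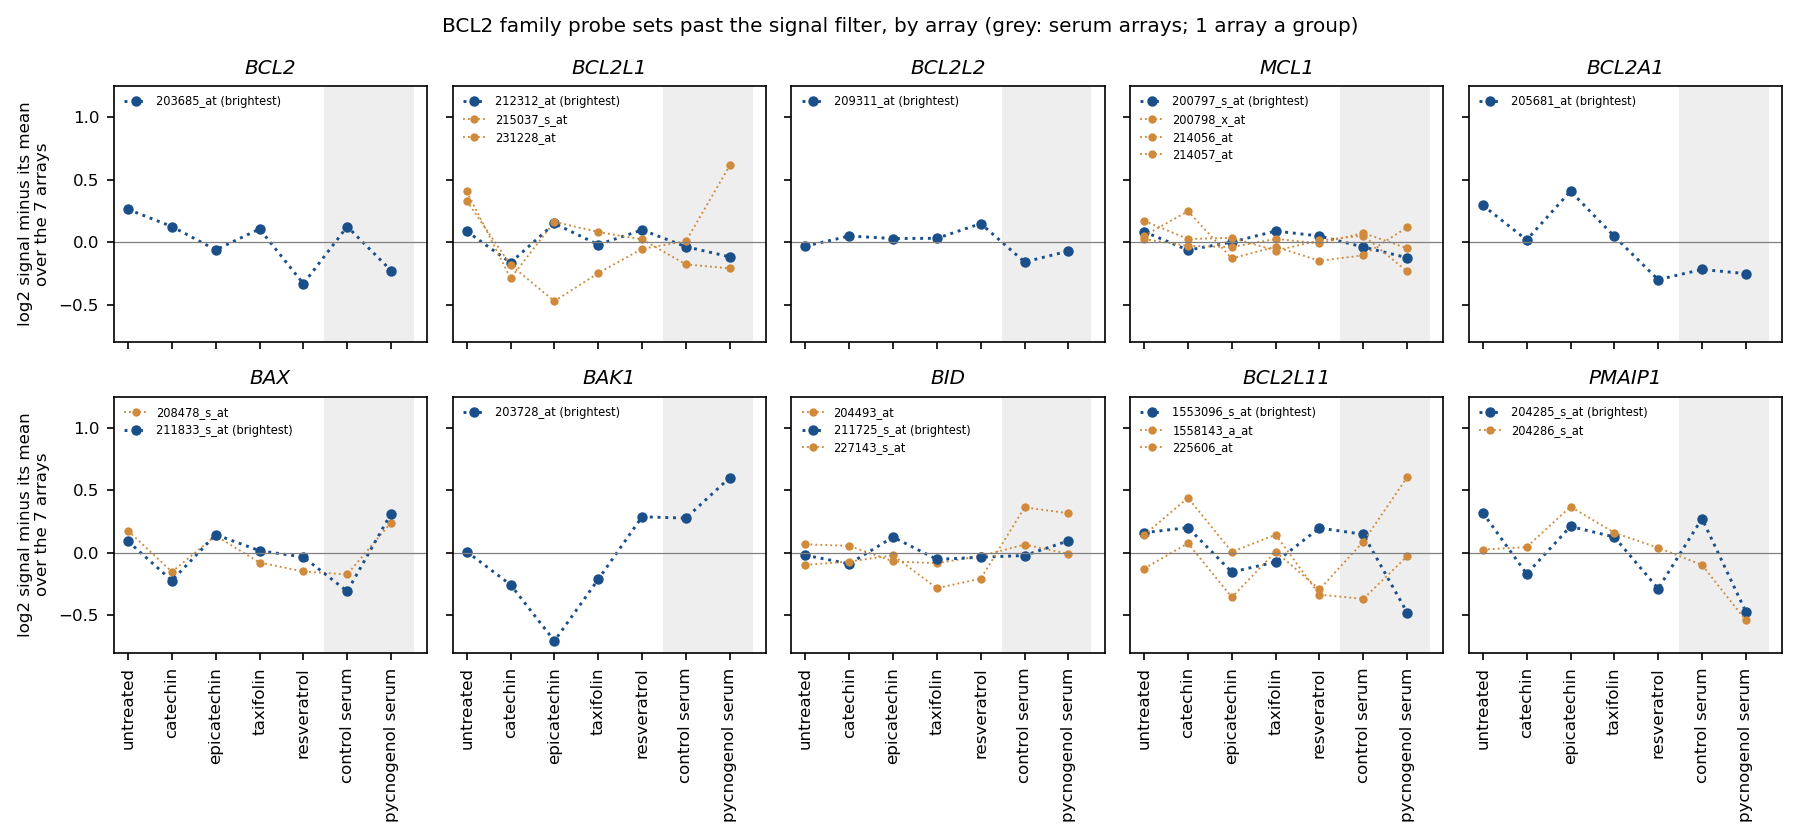
Log2 signal of each member probe set past the filter, minus its mean over the 7 arrays, with arrays on the x axis, the brightest probe set in blue, the others in orange and the serum arrays shaded. Dotted lines only join points of a probe set; BAK1 spans 1.31 and MCL1 0.21 on its brightest probe set, and the BCL2L11 probe sets part in the pycnogenol serum array.

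Among the survival genes, BCL2A1 and BCL2 were lower with resveratrol on their brightest probe sets, while those of MCL1, BCL2L1 and BCL2L2 lay near the untreated array. BCL2A1, at chr15:79960892-79971196, is an NF-kB target that holds back effector activation and had a single probe set. Its signal was 4267 in the untreated culture, 3521 with catechin, 4617 with epicatechin, 3591 with taxifolin, 2826 with resveratrol, 2990 with control serum and 2922 with pycnogenol serum. The resveratrol array and both serum arrays were thus the lowest, and they lay close together. Against the untreated array the log2 difference was -0.59 with resveratrol, a size that 4.23% of the genes reached, and -0.51 with control serum. Both serum arrays overlapped the range of the other 5 because resveratrol read lower still.

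BCL2, the founding survival gene at chr18:63123346-63320090, had 4 probe sets, of which 203685_at passed the filter. It read 901 untreated, 820 with catechin, 720 with epicatechin, 809 with taxifolin, 597 with resveratrol, 819 with control serum and 642 with pycnogenol serum. All 6 treated arrays lay below the untreated array, with resveratrol and pycnogenol serum lowest. The log2 difference was -0.59 with resveratrol against untreated and -0.35 with pycnogenol serum against control serum. With the mean of all 4 probe sets these were -0.19 and 0.074, so the sign between the serum arrays rests on the brightest probe set. The other 3 BCL2 probe sets had means under the filter, and 207004_at among them read 324 with epicatechin and 161 with catechin.

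MCL1, a survival gene at chr1:150574558-150579610 whose protein is rapidly turned over, had 6 probe sets, 4 of them past the filter. The brightest, 200797_s_at, read 25111 untreated, 22675 with catechin, 23711 with epicatechin, 25198 with taxifolin, 24514 with resveratrol, 23064 with control serum and 21735 with pycnogenol serum. Its largest difference from the untreated array among compounds was -0.15, with catechin. The range of its brightest probe set over the 7 arrays was thus narrow. On the dimmer 214057_at, the lowest array was also pycnogenol serum at 930, against 1231 untreated and 1135 with control serum. The probe set 214056_at ran otherwise, with catechin highest at 1733 and resveratrol lowest at 1316.

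BCL2L1, which encodes BCL-X and lies at chr20:31664452-31723963, had 3 probe sets past the filter that did not move alike. The brightest, 212312_at, ran from 1514 with catechin to 1881 with epicatechin, with 1801 untreated. On 215037_s_at the untreated array was highest at 460 and catechin again lowest at 284, a log2 difference of -0.70. On 231228_at pycnogenol serum was highest at 486 and epicatechin lowest at 229, a signal under the filter, with 400 untreated. With resveratrol the brightest lay at 0.011 against untreated and both others at -0.38. In the comparison of the serum arrays the 3 probe sets gave -0.081, -0.032 and 0.61. BCL2L1 is spliced into forms with opposed roles, and the annotation used here does not tell which form each probe set reads.

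BCL2L2, a survival gene at chr14:23306833-23311751, was read from 209311_at. It was 2575 untreated and between 2685 and 2917 with the 4 compounds, and 2357 with control serum and 2505 with pycnogenol serum. It was the only member whose brightest probe set put both serum arrays outside the range of the other 5, in this case below it, where 29.6% of the 9888 genes had both serum arrays outside and 16.1% had them below. A count of 1 in 10 is no higher than that background. BCL2L2 was not outside when each array was centred on its median, where BAK1 alone was, above the other 5, nor with the mean of all probe sets, where BID alone was, also above. The gap was small, from 2505 in the higher serum array to 2575 in the lowest of the others.

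The effectors BAX and BAK1 were both highest with pycnogenol serum but otherwise followed different orders. BAK1, at chr6:33572552-33580276, had 1 probe set, with a signal of 513 untreated, 427 with catechin, 313 with epicatechin, 440 with taxifolin, 622 with resveratrol, 618 with control serum and 773 with pycnogenol serum. The 3 flavonoid arrays lay below the untreated array and the resveratrol and serum arrays above it. Its difference with epicatechin was -0.71, a size that 1.43% of the genes reached. It was the only member past 1.5-fold with epicatechin, as 2.82% of the genes were. It lay at 0.28 with resveratrol, 0.27 with control serum and 0.32 with pycnogenol serum against control serum. The epicatechin signal was near the filter's 269, and no detection call was at hand, so the size of that difference is uncertain. The resveratrol array overlapped the serum arrays, as it read above control serum.

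BAX, at chr19:48954875-48961798, had 2 probe sets past the filter that ran in parallel. The brighter, 211833_s_at, read 4948 untreated, 3981 with catechin, 5137 with epicatechin, 4698 with taxifolin, 4536 with resveratrol, 3751 with control serum and 5772 with pycnogenol serum. On both probe sets control serum was the lowest array and pycnogenol serum the highest. Pycnogenol serum minus control serum was 0.62 on the brighter and 0.41 on the other, 208478_s_at, and 3.43% of the genes differed by at least the former. Against the untreated array the same pycnogenol serum array lay at 0.22 and 0.065, and control serum at -0.40 and -0.35. The comparison of the serum arrays therefore holds a low control serum value as well as a high pycnogenol serum value.

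**Figure D2:**
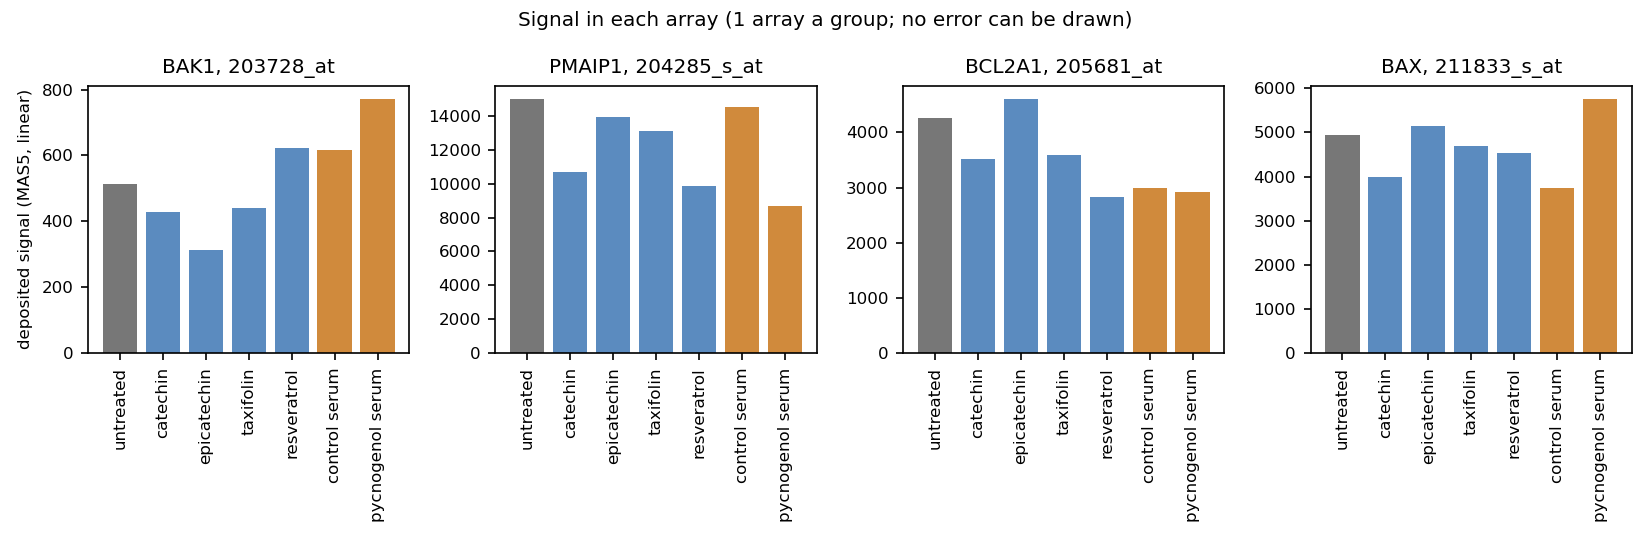
Bars give the deposited MAS5 signal, on a linear axis from 0, of the brightest probe set of BAK1, PMAIP1, BCL2A1 and BAX in each of the 7 arrays, with the untreated culture in grey, compounds in blue and sera in orange; there is 1 array a group and so no error bar. BAK1 runs from 313 with epicatechin to 773 with pycnogenol serum, and PMAIP1 is lowest with pycnogenol serum at 8689.

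Of the BH3-only genes, PMAIP1 was lower with pycnogenol serum on both of its probe sets, BCL2L11 gave opposite signs on different probe sets, and BID had a narrow range on its brightest probe set. PMAIP1, which encodes NOXA, the partner that binds MCL1, lies at chr18:59899996-59904305. On 204285_s_at it read 15042 untreated, 10716 with catechin, 13947 with epicatechin, 13148 with taxifolin, 9877 with resveratrol, 14569 with control serum and 8689 with pycnogenol serum. Pycnogenol serum, resveratrol and catechin were the low arrays and untreated and control serum the high ones. On 204286_s_at the signals were 10342, 10482, 13116, 11350, 10443, 9493 and 6981 in that order of groups. There pycnogenol serum was again the lowest, while catechin and resveratrol lay level with the untreated array.

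Pycnogenol serum minus control serum was -0.75 for PMAIP1 on the brighter probe set and -0.44 on the other, and 1.80% of the genes differed by at least the former. Its sign was the same under all 7 settings that gave it a value, from -0.80 to -0.59. These are not separate checks, since the other floors cannot move so bright a signal. Another of the settings took the untreated array, and not control serum, as reference. Resveratrol against untreated was -0.61 on the brighter and 0.014 on the other, and catechin -0.49 and 0.019, so those differences rest on 204285_s_at. The annotation used here does not say which part of the transcript either probe set reads.

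BCL2L11, which encodes BIM, lies at chr2:111120914-111168445 and had 7 probe sets, 3 past the filter. The brightest by mean log2 signal, 1553096_s_at, read 1071 untreated, 1102 with catechin, 861 with epicatechin, 910 with taxifolin, 1099 with resveratrol, 1061 with control serum and 688 with pycnogenol serum. On 1558143_a_at the signals in that order were 536, 617, 457, 589, 478, 623 and 889, with pycnogenol serum the highest. On 225606_at they were 889, 1093, 810, 890, 639, 624 and 790, with catechin the highest. Pycnogenol serum minus control serum was thus -0.63, 0.51 and 0.34, and the mean of all 7 probe sets gave 0.24, so no direction for the gene is stated. With epicatechin all 3 lay below the untreated array, from -0.31 to -0.13. BIM has several splice forms, and the annotation used here does not tell which of them each probe set reads.

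BID, cleaved by caspase 8 to carry the death receptor signal to the mitochondrion, lies at chr22:17734138-17774665 and had 3 probe sets past the filter. Its brightest, 211725_s_at, ran from 4870 with catechin to 5648 with epicatechin. On 227143_s_at both serum arrays were above the other 5, at 3162 with control serum and 3062 with pycnogenol serum against 2021 to 2424. Neither of the other probe sets showed that gap, and on them control serum differed from untreated by -0.0018 and -0.0023. Over all 21 member probe sets past the filter, 2 had both serum arrays above and 2 had both below the other arrays, where 27.3% of 17655 such probe sets lay outside in either direction. The 4 were 227143_s_at of BID and 1558143_a_at of BCL2L11 above, and 209311_at of BCL2L2 and 204286_s_at of PMAIP1 below.

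The 11 member probe sets under the filter read from 41.7 to 409. They gave 66 differences in the 6 comparisons, and 4 of these reached 2-fold. Without the signal filter, 8.41% to 10.0% of all 19775 genes reached 2-fold in a comparison, each gene read from its brightest probe set. A share for dim probe sets alone was not computed, so the 4 are not read as a result about the members. MCL1 200796_s_at lay at -1.34 with epicatechin and -1.07 with control serum against untreated, BCL2L2 1555140_a_at at -1.62 with catechin, and BCL2L11 222343_at at 1.56 between the serum arrays. The brightest probe set of the same gene lay far from these values, namely at -0.083 and -0.12 for MCL1, 0.080 for BCL2L2 and -0.63 for BCL2L11. These dim signals were not shown to be above background.

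Where several probe sets of a member passed the filter, as in 6 members, they did not always share a sign. The share over all genes with several such probe sets was not computed. Some signs rest on differences near 0, such as 0.0050 and 0.0017 on 2 MCL1 probe sets with taxifolin. All probe sets of a gene had the same sign in 3 of the 6 with catechin, taxifolin, resveratrol and control serum against untreated, and in 2 of 6 with epicatechin and in the comparison of the serum arrays. BAX was the one with like signs in 5 of the 6 comparisons, the exception being epicatechin at 0.054 and -0.040.

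Across comparisons, the members' differences fell mostly inside the central 95% of the 9888 genes. With catechin 8 of 10 members lay below 0 with a median of -0.20, while the median of all genes was 0.035 and 57.6% of them lay above 0. PMAIP1 at -0.49 and BAX at -0.31 were the lowest and BCL2L2 at 0.080 the highest. With taxifolin 8 of 10 lay below 0 with a median of -0.13, all genes having 0.032 and 57.2% of them lying above 0. The members' range was narrow, from BCL2A1 at -0.25 to BCL2L2 at 0.062. With epicatechin 5 lay above and 5 below 0 with a median of -0.014, all genes having 0.032, and BAK1 was the single member outside the central range of -0.47 to 0.49.

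The compounds share the untreated array, so its own deviation enters each of these values. Against the mean of the other 4 arrays without test serum, 7 of 10 members lay below 0 with catechin, with a median of -0.098. With taxifolin 6 of 10 did, with a median of -0.032.

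With resveratrol, BCL2 at -0.594, BCL2A1 at -0.595 and PMAIP1 at -0.61 lay below the central 95% of genes, whose lower end was -0.56. These 3 of 10 members were also the ones past 1.5-fold, as 4.46% of the 9888 genes were, and 1.5-fold corresponds to 0.585, so they passed narrowly. Against the mean of the other arrays without test serum they lay at -0.44, -0.49 and -0.41. The other 7 members lay from -0.13 for BAX to 0.28 for BAK1, and the median of all 10 was -0.025 beside 0.025 for all genes.

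Epicatechin and taxifolin were the only compounds at the same dose. Taxifolin, a dihydroflavonol, carries a ketone that the flavan-3-ol epicatechin lacks. Taxifolin minus epicatechin was 0.49 for BAK1 and -0.36 for BCL2A1 on the log2 scale, the extremes of the 10, and no member reached 2-fold, where 0.324% of the genes did. With 1 array each, neither an interval nor a test of this pair could be given. Catechin, the stereoisomer of epicatechin, was given at another dose, as was resveratrol, so BAK1 signals of 427, 313 and 622 with catechin, epicatechin and resveratrol stand side by side without a comparison.

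With control serum 9 of 10 members lay below 0 against the untreated array, BAK1 at 0.27 being the exception. The median was -0.12 beside 0.0076 for all genes, of which 51.3% lay above 0. Centring each array on its median turned this tally to 8 above and 2 below 0, with a member median of 0.046 where all genes had 0.18. Such centring moves all genes by the same amount, so the gap between the medians of members and of all genes could not change. On the deposited scale most of these differences were small, since 4 of the 9 lay between -0.14 and -0.12 and 3 between -0.046 and -0.0018, and none left the central 95% of genes. With pycnogenol serum against control serum 6 lay below and 4 above 0, with a median of -0.057 beside 0.0083. When the probe sets of each gene were averaged, 7 lay above and 3 below 0, with a median of 0.13 beside 0.0045, so the tally depends on which probe sets are read. That average includes the member probe sets under the filter, whose signals were not shown to be above background. BAX, PMAIP1 and BCL2L11 lay outside the central range of -0.57 to 0.54 and past 1.5-fold, a size that 4.24% of the genes reached. The BCL2L11 value has the opposite sign on the 2 other probe sets of the gene past the filter, as given above. Both serum comparisons share the control serum array, so a deviation of that array enters them with opposite signs.

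**Figure D3:**
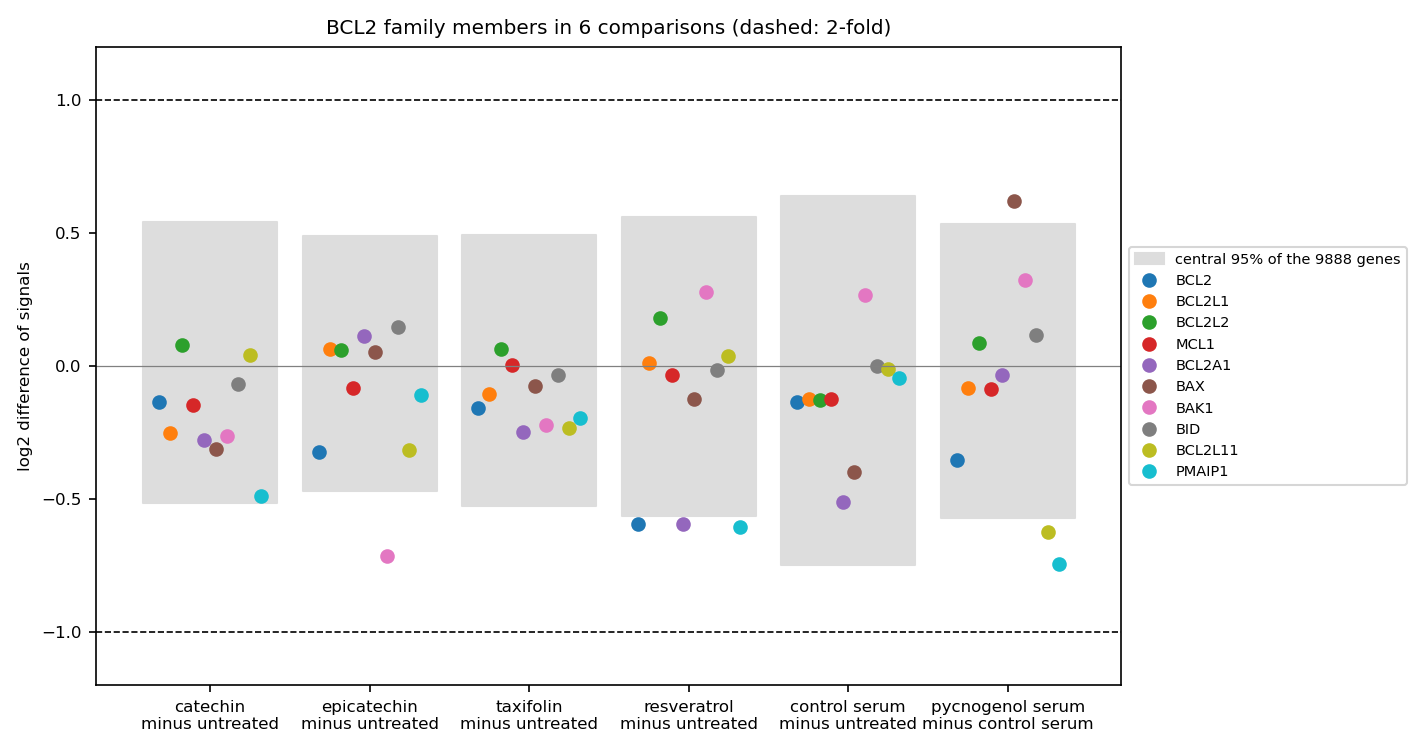
Log2 difference of signals for the 10 members, each from its brightest probe set, in the 6 comparisons, with the grey boxes giving the central 95% of 9888 genes and dashed lines 2-fold. No point reaches a dashed line, and the points outside the boxes are BAK1 with epicatechin, BCL2, BCL2A1 and PMAIP1 with resveratrol, and BAX, BCL2L11 and PMAIP1 between the serum arrays.

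Other genes of the death pathway were read the same way. Of 62 genes in 5 lists, 56 were measured and 47 passed the filter, and of their 282 differences 1 reached 2-fold, with control serum, where 1.2% of all genes did. Among the other BCL2 family genes, 6 of 12 measured passed the filter, with none at 2-fold. Their median was -0.12 with control serum against untreated and 0.10 between the serum arrays, where all 6 lay above 0, as did 51.6% of all genes. BOK, a relative of the effectors, read 306 untreated and 413 and 420 with control and pycnogenol serum. It also read 413 with epicatechin and 373 with taxifolin, beside 307 with catechin and 276 with resveratrol. BCL2L12 lay at 0.46 with resveratrol, and BNIP3L, a mitophagy receptor, at -0.38 with control serum.

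Of the apoptosome, caspase and inhibitor genes, 13 of 13 measured passed the filter with none at 2-fold. With control serum 10 of them lay above 0 with a median of 0.22, beside 0.0076 for all genes, of which 51.3% lay above 0. BIRC2, a ubiquitin ligase that acts in NF-kB signalling, read 10569 untreated, 16574 with control serum and 15590 with pycnogenol serum. Both serum arrays lay above the other 5, whose highest was 12259. AIFM1, a mitochondrial flavoprotein, lay at 0.72 with resveratrol, and CASP9, the caspase of the apoptosome, at -0.69 with epicatechin. Of the death receptor arm, 7 of 9 passed with none at 2-fold, and their medians lay between -0.059 and 0.10 in the 6 comparisons. CASP8, which cleaves BID, lay at 0.60 with catechin and 0.61 with resveratrol, CFLAR, its inhibitor, at 0.43 with epicatechin, and the adaptor TRADD at 0.45 with resveratrol.

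Among regulators of family transcripts and proteins, 13 of 14 measured genes passed the filter. TRIB3, a pseudokinase of the ATF4 response, was the only companion gene past 2-fold, at -1.31 with control serum against untreated. DDIT3, which encodes the stress factor CHOP and is known to act on BCL2 and BCL2L11 transcription, read 3754 untreated, 2052 with control serum and 1026 with pycnogenol serum. Both serum arrays lay below the other 5, of which resveratrol was the lowest at 2557. Its difference between the serum arrays was -0.999, just short of 2-fold. E2F1 lay at 0.76 with control serum. The list medians were -0.090 and -0.065 in the control serum and pycnogenol serum comparisons. The 8 outer membrane partners, which include the VDAC channels, all passed with none at 2-fold. Between the serum arrays VDAC1 lay at -0.51, DNM1L at -0.37 and HK2 at -0.25. Against the untreated array, control serum lay at 0.36, 0.32 and -0.35 for these genes, and pycnogenol serum at -0.15, -0.046 and -0.60. The VDAC1 and DNM1L differences between the serum arrays thus hold a high control serum value.

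**Figure D4:**
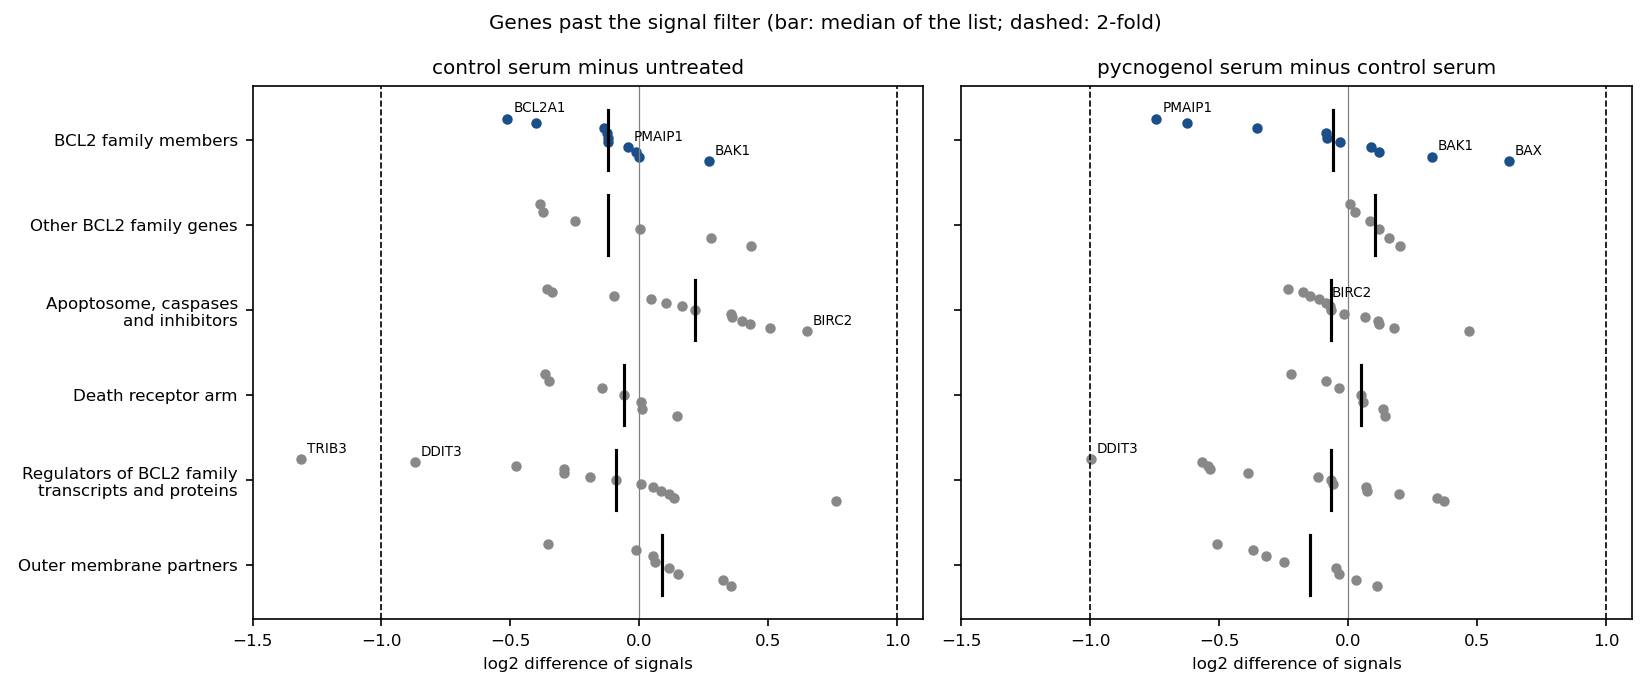
Log2 differences of the members, in blue, and of the companion genes past the filter, in grey, for control serum minus untreated and pycnogenol serum minus control serum, with a bar at each list's median and dashed lines at 2-fold. TRIB3 at -1.31 is the only gene beyond a dashed line, DDIT3 reaches -0.999 in the other comparison, and the list medians lie from -0.15 to 0.22.

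BAK1 and PMAIP1 had the widest ranges among the members on brightest probe sets. For both, genes with similar signals were sought by the root mean square difference between mean-centred log2 signals over the 7 arrays. Nearest to PMAIP1, as read on 204285_s_at, were ZDHHC9 at 0.081, IL12A at 0.094 and DUSP1 at 0.11, where the median over all genes was 0.33. DUSP1, a MAPK phosphatase, read 6430 untreated, 4637 with catechin, 6718 with epicatechin, 5894 with taxifolin, 4984 with resveratrol, 7813 with control serum and 4146 with pycnogenol serum. It shares with that probe set the low catechin, resveratrol and pycnogenol serum arrays, of which catechin and resveratrol were not low on 204286_s_at. Nearest to BAK1 were LMAN2L at 0.15, IST1 at 0.15 and CENPO at 0.16, where the median was 0.43, and IST1 ran from 3766 with epicatechin to 7933 with pycnogenol serum. The nearest of 9888 genes are close by selection, and the points share the scaling of 7 arrays.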

How the data were processed

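RNA of 7 HT1080 cultures was read on 1 array each. The intensity values are the MAS5 signals deposited by the authors, on a linear scale, and MAS5 is named in the submitters' processing notes, with no version given in the sources used here. Leaving out the top and bottom 2% of probe sets, every array averaged 1000. A floor of 34.9, the 25th percentile over all arrays, was applied before taking log2. Probe sets with 1 gene in the platform annotation were used, with symbols brought up to date through RefSeq GRCh38.p14. Differences are the log2 signal of the first array minus that of the second.

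Members, lists and rules were chosen with earlier results of these data known. All 10 members were named. Up to 3 genes of each companion list were named by the largest absolute difference. Likeness was computed for the 2 members with the widest range on brightest probe sets. The alternatives were other normalizations, floors, filters, probe set choices, thresholds and references. The steps were tested on simulated data. Companion genes without a probe set of their own were not analysed here. Python 3.11.15, pandas 2.3.3 and statsmodels 0.14.6 were used. The number of arrays limits the precision.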

Additional observations from a re-analysis of the deposited data

How the results depend on the processing

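The count of members at or past 2-fold was 0 in each comparison. It stayed 0 under quantile normalization, median centring, pairwise loess, both other readings of the probe sets and the other reference arrays. It also stayed 0 with both other floors, both other filters and a 3-fold threshold, which could not have raised it. These floors left the members' differences unchanged, all members already passed the main filter, and 3-fold is stricter. The count was also 0 when every probe set past the filter was counted on its own, an alternative chosen after seeing the data. At 1.5-fold the count was 1 with epicatechin, 3 with resveratrol and 3 with pycnogenol serum against control serum. The number of members with both serum arrays outside the range of the other 5 went from 1 to 3 under quantile normalization, with MCL1 below and BAK1 above besides BCL2L2; the cause was not tested. It was 1 under median centring and when probe sets were averaged, but that member was BAK1 in the former and BID in the latter, both above, and not BCL2L2. Median centring moved the median of all genes with control serum from 0.0076 to 0.18. Without _x_at and _s_at probe sets BAX and PMAIP1 had no value. No paired analysis was possible because each group held 1 array. Differences near the filter's 269 are limited by signal over background.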
